A study of Mus musculus with 12 samples.

Results

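RAW 264.7 cells, an established mouse macrophage-like line, were cultured with LPS and inulin, with or without TsSP, and the comparison described here is the 3 arrays with inulin and TsSP minus the 3 arrays with inulin. LPS is the endotoxin of Gram-negative bacteria, inulin is a fructan of plants and a dietary fibre, and TsSP stands for material that the study's design text calls helminth products. All cells received LPS at 500 ng/mL. Inulin was given at 500 µg/mL to both groups compared, and TsSP at 50 µg/mL to 1 of them. The incubation lasted 6 hours at 37°C in 5% CO2. The study holds 12 arrays in 4 groups of 3. The other groups are LPS alone and TsSP with LPS, without inulin, and they give a second TsSP comparison that shares no array with the first. For both comparisons the spread of each gene was estimated from all 12 arrays. There is no array of cells without LPS, so none of the values shows what LPS or any addition did to resting cells. All annotated genes were compared, with 1 probe set per gene symbol, the one of highest mean over the 12 arrays. That left 19505 genes on 6 of the 12 arrays. The labels leave unsaid whether replicate arrays stand for separate cultures. The p-values then reflect how far these particular samples scatter, and that scatter may be technical. A culture of 1 cell line is also a limited model of tissue macrophages.

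LPS binds the receptor complex of CD14, MD-2 and TLR4 on macrophages. Through the adaptors MyD88 and TRIF it switches on NF-kB, AP-1 and interferon regulatory factors. The first wave of transcription yields cytokines such as TNF and chemokines, and secreted interferon-beta then drives a second wave of antiviral genes and GTPases. Activated macrophages also move to glycolysis, stabilise the oxygen-sensitive factor HIF-1alpha and raise the stress factor NRF2. IL-10 is the main cytokine by which they restrain their own response.

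Expression is given as log2 signal, on which a difference of 1 is a 2-fold difference. The values of the 6 arrays had medians from 5.23 to 5.3 over all probe sets. A gene was taken as above background where it exceeded the brightest of the 23 background probe sets on an array, which 8880 to 8994 genes did on each of the 6. Arrays of a group correlated at r = 0.994 to 0.995 over genes, and arrays of different groups at 0.986 to 0.987. The first principal component separated the groups and held 80.5% of the variance. Inulin and TsSP replicate 1 lay farthest out on the second, which held 5.45%. The exon control probe sets, which were not part of the tests, had medians of 11.16 to 11.21 with inulin and 11.22 to 11.34 with inulin and TsSP. The intron control probe sets ranged from 4.7 to 4.76 and from 4.71 to 4.81.

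Adding TsSP to inulin and LPS changed 3248 of the 19505 genes at an adjusted p under 0.05 (16.7%). Of these, 1689 were higher with TsSP (8.66%) and 1559 lower (7.99%), while the median over all genes was 0.0. Of the called genes, 2683 were above background on all 6 arrays, or 31.8% of the 8430 such genes (16.4% higher and 15.4% lower). Most members of the gene lists were above background, so these shares stand beside those over all genes. The lists were chosen with earlier results of these data known, so their counts describe the genes and are not independent support. Among the 2683 374 were more than 2-fold higher and 404 more than 2-fold lower, and 46 and 77 passed 4-fold. A further 343 called genes were above background in neither group, and no fold is given for such genes. In data simulated with normal noise over 19505 genes, 100 genes were changed 2-fold and 100 genes 4-fold. The test recovered 82% and 99% of them, with 10 false calls. Only genes above background were changed, and far fewer than were called here, so these rates need not hold for the 3248 calls. Centring each array on its exon control probe sets moved the median of all genes to -0.11. The split then was 1188 higher and 2021 lower, or 37.0% higher in place of 52.0%. Directions of gene lists given in the text kept their sign under that scaling unless it is said otherwise.

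The second TsSP comparison, TsSP with LPS minus LPS alone, called 3525 genes (18.1%), 2144 higher (11.0%) and 1381 lower (7.08%). In both comparisons 2522 genes were called the same way, 1420 higher and 1102 lower. That is 77.6% of the genes called with inulin and 71.5% of those called without. Over the 9022 genes above background in at least 1 group, the log2 differences had a Pearson r of 0.935 and a Spearman rho of 0.882. This r is across genes, which are not independent replicates. Of the 725 genes called with inulin alone, 649 had the same sign without it (89.5%), and 302 of them also had an unadjusted p under 0.05.

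**Figure D1:**
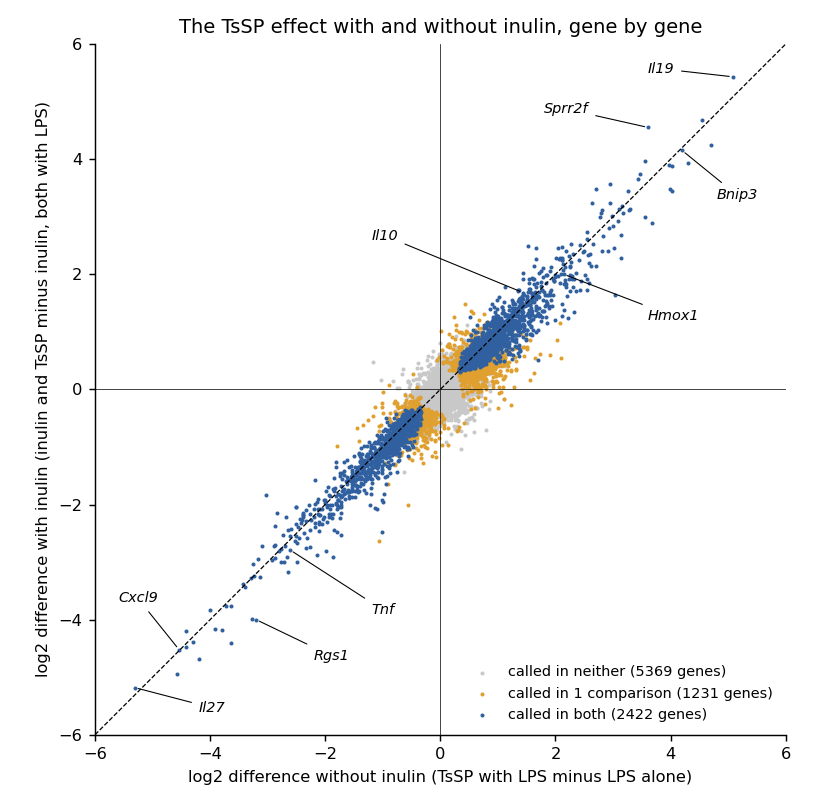
Log2 difference of TsSP for each of the 9022 genes above background in at least 1 group, without inulin (horizontal axis) and with inulin (vertical axis). Blue points are called in both comparisons, orange points in 1 and grey points in neither, and the dashed line marks equal differences. The points spread along that line, from Il27 at the lower left to Il19 at the upper right.

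The largest fall was that of Il27, the gene of the specific chain of interleukin 27. Its signal was 11.92, 11.96 and 12.09 with inulin and 6.92, 6.91 and 6.61 with inulin and TsSP. The 3 arrays with TsSP lay far below the 3 without, a 36.2-fold fall (log2 difference -5.18 ± 0.14 SE, adjusted p = 8.75e-09). The largest rise was that of Il19, a cytokine of the IL-10 family. It read 8.66, 7.83 and 8.25 with inulin and 13.74, 13.62 and 13.67 with TsSP added. The groups did not overlap, and the rise was 43.2-fold (5.43 ± 0.18 SE, adjusted p = 1.43e-08). All 15 genes of the largest rises and all 15 of the largest falls were also called the same way without inulin. The ratio of the log2 difference with inulin to that without ran from 0.858 to 1.28 among the rises and from 0.949 to 1.25 among the falls.

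Among the other leading falls, Ch25h, which makes 25-hydroxycholesterol, read 9.79, 9.37 and 9.59 with inulin. With TsSP it was not above background on any array, at 4.62, 4.84 and 4.46, so its fall was at least 10.1-fold. This bound sets the bright group against the background level of the dim arrays. Slamf7, a receptor of the SLAM family, fell 22.2-fold. Rasgef1b, an exchange factor for Ras-type GTPases, fell 21.0-fold. Ptchd1, a membrane protein with a patched domain, fell 18.2-fold. Kynu, which cleaves kynurenine in tryptophan breakdown, fell at least 13.1-fold. Cd69, an early activation receptor, read 15.13, 15.1 and 15.1 with inulin and 11.47, 11.25 and 11.13 with TsSP, a 14.2-fold fall with little spread on either side.

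Of the 6 leading rises outside the gene lists, 5 started below background. Rab3il1, an exchange factor for Rab GTPases, rose at least 12.0-fold, from below background on all 3 inulin arrays. Tm4sf1, a tetraspan membrane protein, rose at least 5.73-fold, Rnf183, a ubiquitin ligase, at least 5.08-fold and Selp, the adhesion receptor P-selectin, at least 3.15-fold. Bcar1, the adaptor p130Cas, rose at least 2.29-fold. Nek6, a kinase of mitosis, was above background on all 6 arrays and rose 10.9-fold, from 9.85, 9.48 and 9.39 to 12.95, 13.02 and 13.07. Of the 15 largest rises 8 are given as at least values, and of the 15 largest falls 4 are.

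**Figure D2:**
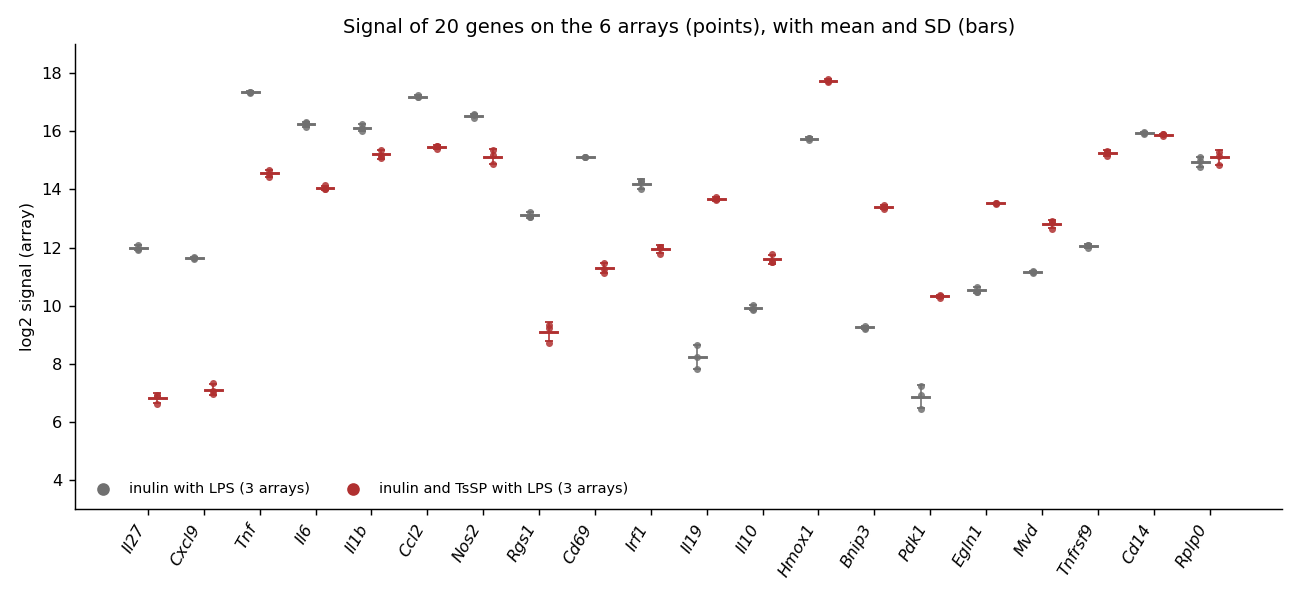
Log2 signal of 20 genes on the 3 arrays with inulin (grey) and the 3 with inulin and TsSP (red), all with LPS, with group means and SD as bars. Genes are a selection from the lists in the text: Il27 to Irf1 sit lower with TsSP and Il19 to Tnfrsf9 higher, while Cd14 and the ribosomal gene Rplp0 were not called.

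Inflammatory cytokines and growth factors were mostly lower with TsSP: of 28 measured genes 20 fell, 1 rose and 7 did not pass, with a median log2 difference of -1.17. The groups did not overlap for Tnf, the gene of the founding inflammatory cytokine of the macrophage. It read 17.31, 17.36 and 17.35 with inulin and 14.43, 14.68 and 14.53 with TsSP, a 6.93-fold fall (-2.79 ± 0.12 SE, adjusted p = 4.94e-08). Il6, which drives the acute phase response, read 16.28, 16.14 and 16.3 against 14.0, 14.02 and 14.14 and fell 4.55-fold (adjusted p = 2.1e-07). The interleukin-1 genes split by size, with Il1a 6.49-fold lower and Il1b 1.88-fold lower. Il1b read 16.01, 16.25 and 16.1 with inulin and 15.09, 15.37 and 15.15 with TsSP. Its groups did not overlap, and its fall was among the smaller ones of the list. Csf2, which encodes GM-CSF, was below background on all 3 TsSP arrays and fell at least 5.23-fold. Csf1, the growth factor of macrophages themselves, fell 5.87-fold and Csf3 2.32-fold. Other falls were those of the TNF family ligands Tnfsf15 (7.96-fold) and Tnfsf10, known as TRAIL (6.6-fold), of Il15 (4.99-fold), Osm (4.23-fold), Pdgfb (3.12-fold) and Il18 (2.0-fold).

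The rise in that list was that of Il1rn, which encodes the antagonist of the IL-1 receptor. It read 16.62, 16.67 and 16.75 with inulin and 17.21, 17.08 and 17.21 with TsSP, 1.4-fold higher (adjusted p = 0.0067). This call was lost when arrays were centred on the exon control probe sets (adjusted p = 0.0631, the highest over 20 alternatives, the lowest being 1.42e-07). Il23a and Ifnb1 were called lower, but neither was above background on any of the 6 arrays. Vegfa (0.56) and Hbegf (0.51), both growth factors, had positive log2 differences that did not pass.

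The window of 300 bases around the Tnf start site is shown because it holds the letters GGANNTTCC of an NF-kB core motif, in a gene whose signal fell. It lies at chr17:35201958-35202257 on the minus strand of GRCm38.p6, as given by RefSeq, and is written from 250 bases before to 50 after the start, with the match at position -212 in capitals.
Tnf: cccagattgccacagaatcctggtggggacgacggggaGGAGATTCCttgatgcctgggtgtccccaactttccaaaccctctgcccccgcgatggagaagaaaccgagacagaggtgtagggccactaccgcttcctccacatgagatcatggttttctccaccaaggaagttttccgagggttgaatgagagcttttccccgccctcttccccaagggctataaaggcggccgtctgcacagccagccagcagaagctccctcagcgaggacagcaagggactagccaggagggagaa

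Chemokines, which recruit leukocytes, followed: of 24 genes 15 fell, 2 rose and 7 did not pass, with a median of -1.02. The same counts of 15 and 2 were found without inulin. Cxcl9, an interferon-induced ligand of CXCR3, read 11.64, 11.6 and 11.67 with inulin and 7.06, 7.33 and 6.95 with TsSP. It fell 23-fold (-4.52 ± 0.17 SE, adjusted p = 3.32e-08), with groups far apart. Cxcl10 and Cxcl11, ligands of the same receptor, lie after Cxcl9 in the gene order with Art3 between, and fell 4.56-fold and 2.89-fold. Among the other genes within 5 places of Cxcl9, Sdad1 (-0.91), Art3 (-0.64) and Nup54 (-0.64) were called lower, and U90926 (1.98), Naaa (1.03) and Uso1 (0.71) higher, as log2 differences. The call of Art3 was lost without inulin replicate 1 and without inulin and TsSP replicate 2 or 3 (adjusted p from 0.0021 to 0.0652). Ccl2, the main attractant of monocytes, read 17.18, 17.24 and 17.16 against 15.48, 15.39 and 15.5 and fell 3.34-fold. Its neighbours Ccl7 and Ccl12 fell 4.49-fold and 2.53-fold, and Ccl8 at least 2.16-fold. Ccl11 (-0.39) and Ccl1 (-0.13) in the same cluster did not pass. Ccl22 fell 4.68-fold, Cxcl2 2.93-fold and Ccl4 2.6-fold. Smaller falls were those of Ccl3 (1.46-fold) and Ccl5 (1.38-fold). Pf4, the platelet factor, rose 1.73-fold, and Ppbp at least 1.64-fold.

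The IL-10 family and anti-inflammatory regulators went both ways: 11 of 25 rose, 5 fell and 9 did not pass, with a median of 0.39. Il10 read 9.86, 9.89 and 10.03 with inulin and 11.52, 11.78 and 11.5 with TsSP. All 3 TsSP arrays were higher, a 3.2-fold rise (1.68 ± 0.13 SE, adjusted p = 3.52e-06). Il19 lies next to Il10 in the gene order, while Il20 (0.39) and Il24 (0.28) on its other side were below background and did not pass. Il1r2, the decoy receptor for IL-1, rose at least 2.86-fold. Sbno2, a corepressor induced by IL-10, rose 2.52-fold, Il4ra, the receptor chain for IL-4, 2.31-fold, Bcl3 1.71-fold and Socs3 1.56-fold. Among feedback genes that fell, Cish was below background with TsSP and fell at least 2.82-fold, Socs1 fell 5.54-fold, Tnfaip3, which encodes A20, 2.76-fold and Zfp36, which binds cytokine mRNA for decay, 1.76-fold.

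Genes of the NF-kB pathway were lower more often than higher, with 18 of 32 lower, 4 higher and 10 not passing, and a median of -0.54. The 3 measured copies of the survival gene Bcl2a1 (a, b and d) fell 9.53-fold to 10.8-fold. Icam1, the adhesion target of NF-kB, fell 4.84-fold. Of the NF-kB subunits, Rel fell 2.83-fold and Nfkb2 1.73-fold, while Rela (-0.42) did not pass. Of the genes of IkB proteins, Nfkbiz (2.6-fold), Nfkbib (1.62-fold) and Nfkbia (1.41-fold) fell too. Against the list, Tifab, a partner of the adaptor TIFA, rose 14.8-fold, from 6.87, 6.75 and 7.1 to 10.93, 10.41 and 11.05. Ikbkg, which encodes NEMO, the regulatory subunit of the IkB kinase complex, rose 1.51-fold. Tifa (1.42-fold) and Tnip3 (1.27-fold) also rose. The count of falls ran from 15 to 23 over the alternatives. Leaving out inulin replicate 1 or 2, or inulin and TsSP replicate 1, took the count of rises from 4 to 2. Tifa had an adjusted p of up to 0.0612 and Tnip3 of up to 0.194 over the 20 alternatives, with lowest values of 0.00089 and 3.87e-05.

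Receptors and sensors of microbes were lower in 11 of 27 genes and higher in 4, with a median of -0.19. The coreceptor Cd14 read 15.94, 15.89 and 15.99 with inulin and 15.82, 15.89 and 15.89 with TsSP and did not pass (-0.07, adjusted p = 0.717). Tlr4 (-0.2) did not pass either, while Ly96, which encodes MD-2, rose 1.39-fold. Nlrp3, the inflammasome sensor, fell 3.65-fold, Tlr1 2.89-fold, Nod2 2.34-fold, Tlr3 2.07-fold and Tlr2 1.57-fold. Of 17 nitric oxide, arginine and itaconate genes 5 fell and 2 rose. The rise of Oat was lost under 10 alternatives, 7 of them single arrays left out (adjusted p from 0.00603 to 0.153), and Odc1 (2.02-fold) kept its rise. In that list 8 fell where genes below background were left out and 9 with a mean-variance trend. Nos2, the inducible nitric oxide synthase, read 16.58, 16.57 and 16.47 against 15.17, 15.35 and 14.87 and fell 2.66-fold. Gch1, which makes its cofactor, fell 2.96-fold. Ptgs2, which encodes COX-2, fell 1.88-fold and Acod1, the itaconate enzyme, 1.33-fold. Acod1 lost its call without inulin replicate 2, without inulin and TsSP replicate 3 and with the 6 arrays alone, with adjusted p between 1.18e-06 and 0.0629 over the alternatives. Arg1, the arginase of alternative activation, was below background on all 6 arrays.

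Interferon-stimulated genes were lower as a group: 37 of 40 antiviral genes fell, none rose and 3 did not pass, with a median of -0.72. All 15 interferon-inducible GTPases fell, with a median of -1.7. Without inulin 35 of the 40 and all 15 were lower. Irf1, a transcription factor for many of these genes, read 14.29, 14.3 and 14.0 with inulin and 11.78, 12.02 and 12.01 with TsSP, a 4.8-fold fall. The Ifit genes, whose products bind viral RNA, fell 3.61-fold (Ifit1) to 5.61-fold (Ifit1bl1). Mx1 fell 2.98-fold, Rsad2, which encodes viperin, 2.76-fold and Stat2 1.74-fold. The smallest called fall was that of Isg20, 1.28-fold, which lost its call under 7 alternatives, 5 of them single arrays left out (adjusted p from 7.08e-06 to 0.0991). Other antiviral genes lost theirs too, as the count of falls ran from 29 to 39 over the alternatives. Oas1g (-0.26), Eif2ak2 (-0.25) and Oasl2 (-0.13) did not pass. Among the GTPases, Tgtp2 read 13.04, 13.15 and 13.09 against 9.4, 9.06 and 8.3, an 18.1-fold fall with wider spread on the TsSP side. Iigp1 fell 13.5-fold and Gbp4 4.67-fold, while Gbp2, Gbp3 and Gbp7 fell 1.71-fold, 1.69-fold and 1.52-fold.

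The promoter window of Ifit3, which fell 3.78-fold, holds 3 matches to GAAANNGAA, the core of the interferon-stimulated response element. All lie on the opposite strand, at positions -155, -121 and -102. The window is chr19:34583279-34583578, plus strand, GRCm38.p6, from RefSeq, with matches in capitals.
Ifit3: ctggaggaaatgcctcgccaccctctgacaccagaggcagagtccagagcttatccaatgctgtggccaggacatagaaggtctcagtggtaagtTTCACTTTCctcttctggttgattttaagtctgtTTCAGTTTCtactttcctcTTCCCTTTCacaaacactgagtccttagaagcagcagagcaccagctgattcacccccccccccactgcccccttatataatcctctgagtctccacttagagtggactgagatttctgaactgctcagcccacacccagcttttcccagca

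Antigen presentation genes fell in 13 of 24 and rose in none. They were led by Psmb10, an immunoproteasome subunit (2.3-fold), followed by H2-M3 (1.76-fold) and the peptide transporters Tap2 and Tap1 (both 1.74-fold). The class I genes H2-K1 (0.05) and H2-D1 (-0.23) and their partner B2m (-0.12) did not pass. Among costimulatory and checkpoint molecules 8 of 25 fell and 3 rose. Icosl, the ligand of ICOS, fell 5.86-fold, Cd274, which encodes PD-L1, 2.88-fold and Cd40 2.56-fold. The rises were those of Tnfrsf9, the receptor 4-1BB (9.14-fold), Vsir, the checkpoint receptor VISTA (8.33-fold), and Cd80 (2.06-fold). Tnfrsf9 read 12.09, 12.08 and 11.99 with inulin and 15.29, 15.14 and 15.31 with TsSP, so that it moved against most of its list by over 3 on the log2 scale (3.19 ± 0.11 SE, adjusted p = 1.47e-08).

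**Figure D3:**
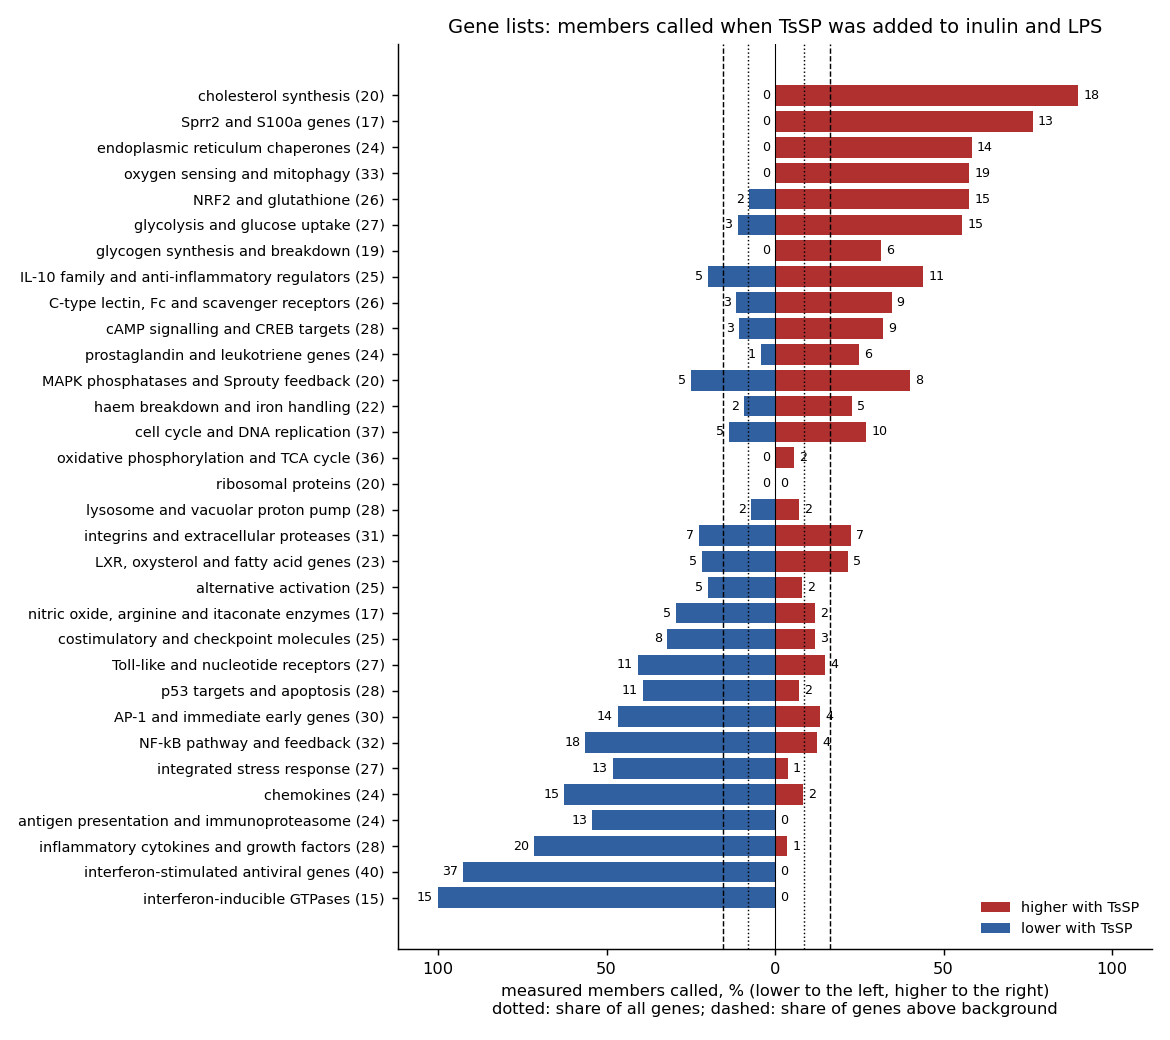
Share of the measured members of 32 gene lists called higher (red, to the right) and lower (blue, to the left) when TsSP was added to inulin and LPS, with counts at the bars and list sizes in brackets. Dotted lines mark the shares over all genes, 8.66% higher and 7.99% lower, and dashed lines those over genes above background on all 6 arrays, 16.4% and 15.4%. Interferon-inducible GTPases are at the bottom with 15 of 15 lower and cholesterol synthesis at the top with 18 of 20 higher. The lists were chosen with earlier results of these data known.

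Genes of oxygen sensing and mitophagy were higher: 19 of 33 rose, none fell and 14 did not pass, with a median of 0.88. Bnip3, a mitophagy receptor and target of HIF-1, read 9.3, 9.25 and 9.21 with inulin and 13.34, 13.4 and 13.46 with TsSP. With groups far apart it rose 17.7-fold (4.15 ± 0.14 SE, adjusted p = 1.47e-08). Hif1a itself rose 2.68-fold, from 14.75, 14.65 and 14.64 to 16.09, 16.11 and 16.1. Of the enzymes that mark HIF for breakdown, Egln1 rose 7.97-fold and Egln2 1.69-fold, while Egln3 (0.33) did not pass. Vhl, which hands HIF to the proteasome, rose 1.69-fold. Mxi1, a repressor of MYC targets, rose 6.11-fold, the clock repressors Bhlhe40 and Bhlhe41 4.4-fold and 4.38-fold, and Fam162a 3.04-fold. Members that did not pass included Ak4 (-0.75), Epas1, which encodes HIF-2alpha (-0.31), and Car9 (0.27).

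Bnip3 has the hypoxia response element core ACGTGC in its window on both strands, at positions -109 and -107. The matches overlap in the capital letters below. The window is chr7:138909457-138909756, minus strand, GRCm38.p6, from RefSeq.
Bnip3: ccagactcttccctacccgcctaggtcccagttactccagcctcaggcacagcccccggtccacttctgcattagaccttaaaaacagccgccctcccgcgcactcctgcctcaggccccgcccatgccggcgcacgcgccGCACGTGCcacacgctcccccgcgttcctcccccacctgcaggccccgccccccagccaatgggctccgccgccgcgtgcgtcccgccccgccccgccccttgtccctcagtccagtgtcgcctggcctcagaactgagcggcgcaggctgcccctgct

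Glycolysis and glucose uptake genes rose in 15 of 27 and fell in 3, with a median of 0.49. Pdk1, the kinase that closes pyruvate dehydrogenase, rose 10.9-fold, from 6.46, 7.24 and 6.92 to 10.27, 10.36 and 10.33. Pfkl, a phosphofructokinase, rose 4.66-fold, the lactate transporter Slc16a1 3.47-fold, Tpi1 2.52-fold, the glucose transporter Slc2a1 2.34-fold and Ldha 1.88-fold. Hk2 (0.38) and Gapdh (0.28) did not pass. Hk3 fell 1.81-fold, Pfkp 1.34-fold and the transporter Slc2a6 1.32-fold. The count of rises ran from 12 to 16 over the alternatives, so some rises lost their calls. Leaving out inulin replicate 1 or 2, or inulin and TsSP replicate 1 or 3, took the count of falls from 3 to 1. Over the 20 alternatives the adjusted p of Pfkp ran from 3.52e-05 to 0.0684 and that of Slc2a6 from 5.64e-05 to 0.0977. Of 19 glycogen genes 6 rose and none fell, among them the synthase Gys1 (5.33-fold), Pgm1 (3.56-fold) and Ppp1r3b, which targets the phosphatase to glycogen (at least 3.21-fold). Others among the 6, Gyg and Phkg2, lost their calls under 10 and 6 alternatives, with adjusted p up to 0.134 and 0.0955 and down to 0.0075 and 0.00308. The breakdown enzyme Pygl (0.63) did not pass.

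NRF2 targets and glutathione genes rose in 15 of 26 and fell in 2, with a median of 0.52. Osgin1 rose 3.76-fold, and both subunits of the enzyme that starts glutathione synthesis rose, Gclm 2.38-fold and Gclc 1.58-fold. The cystine carrier Slc7a11 rose 1.98-fold and the glutathione reductase Gsr 1.79-fold. Nfe2l2, which encodes NRF2, did not pass (-0.2), and its inhibitor Keap1 fell 1.51-fold. Sqstm1 fell 1.33-fold, a call that was lost without inulin replicate 1 or 3, without inulin and TsSP replicate 3 and with the 6 arrays alone (adjusted p from 5.09e-06 to 0.0768). Hmox1, which opens haem and is also induced by NRF2, read 15.69, 15.78 and 15.76 with inulin and 17.73, 17.69 and 17.8 with TsSP. It rose 3.99-fold (2.0 ± 0.1 SE, adjusted p = 1.72e-07). With it the haem carrier Slc48a1 rose 3.11-fold, the metal transporter Slc11a1 1.93-fold and Blvrb 1.46-fold, while the iron exporter Slc40a1 fell 1.78-fold and Cp 2.01-fold. The ferritin chains Fth1 (-0.01) and Ftl1 (0.05) did not pass. Over the 22 haem and iron genes 5 rose and 2 fell, and 8 rose where genes below background were left out. The median of 0.09 turned to -0.02 after exon control centring.

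Cholesterol synthesis genes rose together: 18 of 20 rose, none fell and 2 did not pass, with a median of 0.87. Hmgcs1, which makes the HMG-CoA of the pathway, read 14.41, 14.37 and 14.35 with inulin and 15.5, 15.5 and 15.44 with TsSP, a 2.14-fold rise with groups that did not overlap. Mvd rose 3.12-fold, the squalene epoxidase Sqle 2.65-fold, Msmo1 2.52-fold and Insig1, which holds the SREBP complex in the endoplasmic reticulum, 2.09-fold. Srebf2, the regulator itself (0.31), and Ggps1 (-0.19), which leads to another product, did not pass. Among oxysterol, LXR and fatty acid genes 5 of 23 rose and 5 fell. The efflux pump Abca1 rose 7.13-fold, from 10.41, 10.36 and 10.52 to 13.36, 13.17 and 13.26, while its relative Abcg1 fell 3.07-fold and Mylip 3.01-fold. Without inulin replicate 3, or without inulin and TsSP replicate 3, 3 of that list rose. The median of 0.05 turned to -0.06 after exon control centring.

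The Hmgcs1 window holds TCACNCCAC, the core of a sterol response element, at position -137. It lies at chr13:119690101-119690400, plus strand, GRCm38.p6, from RefSeq.
Hmgcs1: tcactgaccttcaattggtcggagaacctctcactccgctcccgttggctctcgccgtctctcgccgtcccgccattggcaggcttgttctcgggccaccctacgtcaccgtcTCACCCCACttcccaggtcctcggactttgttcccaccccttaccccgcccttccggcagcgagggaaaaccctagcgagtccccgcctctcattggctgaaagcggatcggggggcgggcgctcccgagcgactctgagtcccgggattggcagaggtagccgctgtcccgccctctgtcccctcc

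Over all tested genes, 15691 had RefSeq windows, 19143 in all, and the shares holding each motif on either strand are a description with no test. A window could count for more than 1 motif. The called groups hold only genes above background on all 6 arrays, so the share over all 8430 such genes is given beside that over all tested genes. The NF-kB core was in 4.29% of all windows and 4.76% of those of genes above background. It was in 2.73% of windows of genes more than 2-fold higher and in 6.75% of those of genes more than 2-fold lower. In the cytokine list 27.3% of the 22 windows held it, and in the chemokines 31.6% of 19. For GAAANNGAA the shares in the same order were 7.98%, 7.38%, 4.96% and 13.5%. It was in 42.1% of 38 windows of antiviral genes and 87.5% of 8 windows of GTPases. The other lists counted ran from 8.57% (oxygen sensing and NRF2) to 21.1% (chemokines). For ACGTGC they were 6.74%, 8.38%, 10.4% and 6.51%, with 42.9% of 35 windows of oxygen sensing genes. The antioxidant response element core TGACNNNGC was in 13.1%, 14.2%, 16.1% and 14.2%, and in 28.6% of 35 NRF2 windows. TCACNCCAC was rare, in 1.22%, 1.1%, 1.49% and 0.964%, and in 1 of 19 cholesterol windows (5.26%). The interferon-gamma site GAS (TTCNNNGAA) was in 7.75%, 6.86%, 7.2% and 5.78%. Over the lists it ran from 0.0% (cytokines) to 50.0% (the 8 GTPase windows), with 21.1% of antiviral windows. The AP-1 site TGANTCA was in 7.15%, 5.16%, 7.94% and 9.64%, and the CRE (TGACGTCA) in 2.31%, 3.33%, 1.24% and 2.41%.

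**Figure D4:**
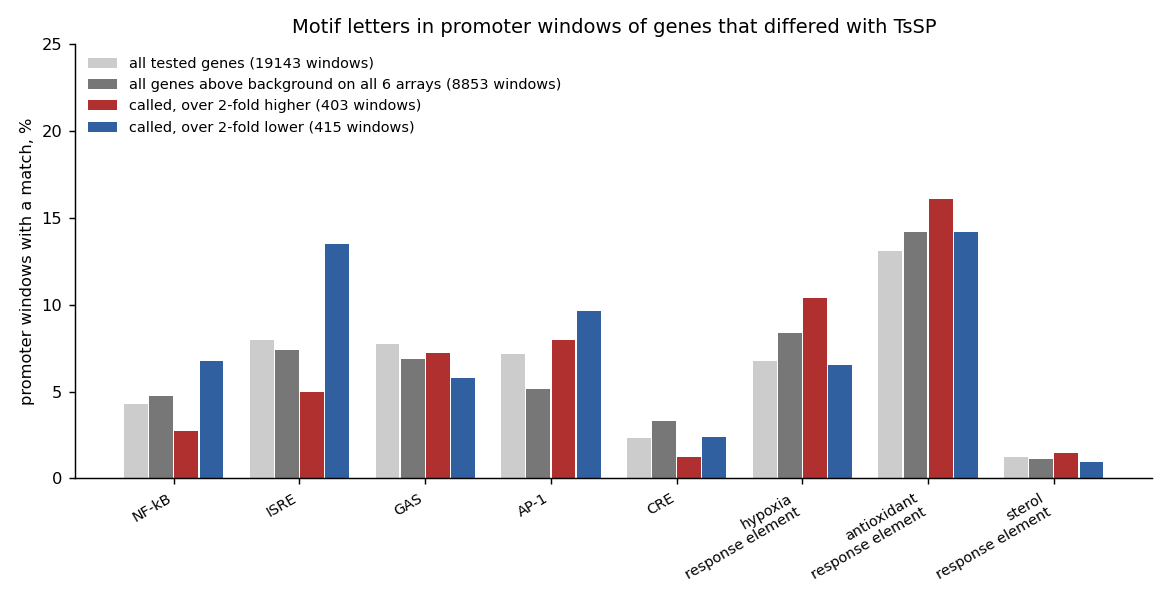
Share of RefSeq promoter windows with at least 1 match to the letters of 8 motifs (vertical axis, %), for all tested genes (light grey), all genes above background on all 6 arrays (dark grey), and called genes of the latter more than 2-fold higher (red) or lower (blue). The ISRE bar of lower genes reaches 13.5% against 7.38% of genes above background, and the hypoxia response element bar of higher genes 10.4% against 8.38%.

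Chaperones and folding enzymes of the endoplasmic reticulum rose in 14 of 24 and fell in none, with a median of 0.49, led by Sdf2l1 (2.76-fold), Creld2 (2.62-fold), Dnajc3 (2.18-fold) and the disulfide isomerase P4hb (2.1-fold). Hspa5, which encodes BiP (0.21), did not pass. Genes of the integrated stress response, the branch through ATF4, fell in 13 of 27 and rose in 1, with a median of -0.42. Their falls numbered 10 to 19 over the alternatives. Chac1, which degrades glutathione, read 11.59, 11.56 and 11.33 with inulin and 8.93, 9.13 and 9.07 with TsSP, a 5.47-fold fall. Sesn2 fell 5.03-fold, Ddit3, which encodes CHOP, 2.61-fold and Atf3 2.25-fold, while Atf4 (-0.34) and Asns (-0.37) did not pass. Eif4ebp1 rose 1.34-fold, with adjusted p from 0.000659 to 0.0995 over the alternatives. Its call was lost without inulin replicate 1 or 3, without inulin and TsSP replicate 3, with the 6 arrays alone and after exon control centring.

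Immediate early and AP-1 genes fell in 14 of 30 and rose in 4. Plk2, a kinase induced by stress, fell 7.64-fold, Egr1 6.38-fold, Csrnp1 5.25-fold, Gadd45b 3.39-fold and Junb 1.9-fold. Klf10 (6.43-fold), Fos (3.88-fold), Fosl1 (2.47-fold) and Jund (1.72-fold) rose. Fos read 9.6, 9.56 and 9.28 with inulin and 11.6, 11.48 and 11.21 with TsSP, opposite to Egr1 at 9.64, 9.6 and 9.8 against 7.16, 6.42 and 7.44. Among MAPK phosphatases and Sprouty-type feedback genes 8 of 20 rose and 5 fell, with Dusp10 2.94-fold and Dusp4 2.37-fold lower, and Dok2 2.58-fold and Spred2 2.27-fold higher. Dusp1, which ends p38 signalling, rose 1.48-fold. The median of that list, 0.08, turned to -0.03 after exon control centring.

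In the list of cAMP signalling, 9 of 28 rose and 3 fell. The falls were led by Rgs1 and Rgs2, which shorten G-protein signals. Rgs1 read 13.22, 13.06 and 13.04 with inulin and 9.34, 9.25 and 8.73 with TsSP and fell 16.0-fold. Rgs2 read 12.39, 12.57 and 12.34 against 8.62, 8.49 and 8.21 and fell 15.9-fold. They lie in 1 gene cluster, in which Rgs18 was also called lower and Rgs13 (-0.43) and Rgs21 (-0.24) were below background and did not pass. The coactivator Crtc3 rose 2.83-fold and the clock gene Per1 2.6-fold.

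C-type lectin, Fc and scavenger receptors rose in 9 of 26 and fell in 3. Clec4a2, an inhibitory lectin, rose 3.94-fold, Trem1 3.09-fold, Clec4n, which encodes Dectin-2, 2.76-fold and Clec4a3 2.22-fold, whereas Clec12a fell 2.24-fold. Clec4a3, Clec4a2, Clec4n and Clec4d, all higher, lie in 1 cluster with Clec4a4 (0.41), Clec4b1 (0.3), Clec4b2 (0.42) and Clec4e (-0.22), which did not pass. Clec4a1, in the same cluster, was called 1.45-fold higher but not with the 6 arrays alone (adjusted p from 1.32e-05 to 0.0514). Prostaglandin and leukotriene genes rose in 6 of 24 and fell in 1, the latter Ptgs2. Pla2g7 rose 2.97-fold and Alox5ap, which presents substrate to 5-lipoxygenase, 2.5-fold. In that list too the median, 0.07, changed sign after exon control centring (-0.04). Of 25 genes of alternative activation 2 rose, Il4ra and Stat6 (1.69-fold), and 5 fell, among them Ccl22 and Ccl17, the latter at least 1.91-fold. Mrc1 (0.04), Chil3 (0.09) and Retnla (-0.06), common markers of that state, were below background on all 6 arrays and did not pass.

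Sprr2 and S100a genes held several of the largest rises, 13 of 17 with none lower and a median of 1.21. Like the others, this list was chosen with earlier results of these data known, so its share is a description only. The small proline-rich proteins of the Sprr2 family are known from the cornified envelope of skin. Sprr2e read 8.1, 7.78 and 7.03 with inulin and 12.19, 12.23 and 12.54 with TsSP, a 25.7-fold rise, and Sprr2d rose 15.4-fold. Sprr2f rose at least 7.6-fold and Sprr2i at least 8.79-fold, since with inulin they were below background on 3 and 2 arrays. The 8 neighbours from Sprr2b to the pseudogene Sprr2j-ps were all higher, and Lelp1 (0.35) before them did not pass. S100a8, a subunit of calprotectin, was below background on all 3 inulin arrays and read 9.03, 8.19 and 9.15 with TsSP, at least 5.97-fold higher. Its partner S100a9 did not pass (0.04). Copies of the Sprr2, Bcl2a1, Ifit, Gbp and Clec4a families are alike in sequence, and how far their probe sets tell them apart was not tested.

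**Figure D5:**
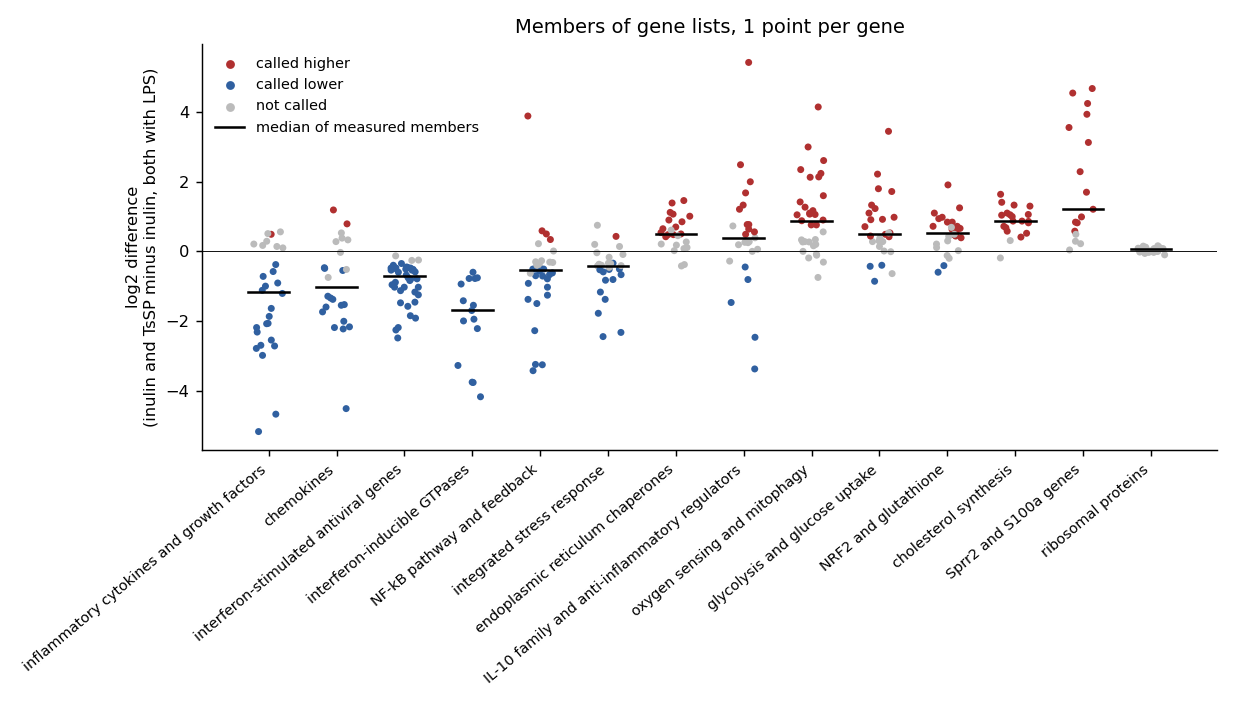
Log2 difference of each measured member of 14 gene lists when TsSP was added to inulin and LPS, 1 point per gene, red where called higher, blue where called lower and grey where not called, with the list median as a bar. Points of the interferon lists lie below 0 and those of cholesterol synthesis nearly all above, while the 20 ribosomal protein genes stay between -0.1 and 0.16.

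The ribosomal, respiratory chain and lysosomal lists moved little as groups. None of the 20 ribosomal protein genes was called by limma, and their differences ran from -0.1 to 0.16. Of 36 genes of the respiratory chain and TCA cycle 2 rose, Ndufa4 (1.4-fold) and Cox7a2 (1.38-fold), and both calls were lost after exon control centring (adjusted p of 0.0668 and 0.0783). With a mean-variance trend 6 rose, and 5 where genes below background were left out. Lysosomal genes rose in 2 of 28 and fell in 2, with 8, 7 and 4 rises under the trend, the background filter and quantile normalization. Mitf, a regulator of lysosome and lineage genes, fell 3.11-fold. The medians of these lists, 0.07, 0.05 and 0.07, turned negative after exon control centring, at -0.04, -0.05 and -0.04. Cell cycle genes rose in 10 of 37 and fell in 5. They included Ccnd3 (3.22-fold higher), Rrm2 (2.92-fold higher) and Cdt1 (1.84-fold lower), and 5 rose after exon control centring and 6 with the 6 arrays alone. Apoptosis and p53 target genes fell in 11 of 28 and rose in 2, with Mdm2 2.81-fold and Bcl2 2.44-fold lower, and their median of -0.03 turned to 0.01 after quantile normalization. Rises numbered 4 with the trend or the background filter. Of the 2, Ccng1 lost its call under 8 alternatives, 5 of them single arrays left out (adjusted p from 0.00131 to 0.195), and Ei24 without inulin and TsSP replicate 1 (from 0.000856 to 0.0544).

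The labelled cell type was checked against its markers. Csf1r read 15.64, 15.66 and 15.57 with inulin and 15.65, 15.8 and 15.71 with TsSP, and Spi1, which encodes PU.1, 17.67, 17.67 and 17.85 against 17.9, 17.93 and 17.9. Neither passed, with log2 differences of 0.09 and 0.18. Of 23 measured macrophage markers 22 were above background, 5 rose and 3 fell. The count of rises was 2 or 3 with any single array of the 12 left out and 8 with the trend. Falls numbered 5 with the background filter and 6 with the trend. After exon control centring 2 rose and 6 fell, and the list median of 0.09 turned to -0.02. Adgre1, which encodes F4/80, fell 2.22-fold and Irf8 rose 2.67-fold, and their calls held under all 20 alternatives. None of the 14 lymphocyte markers was above background, nor were Itgax and Flt3 of dendritic cells or Epcam of epithelium. Above background were 2 of 13 dendritic cell markers, 1 of 15 of neutrophils and mast cells and 3 of 16 of fibroblasts and epithelium. Calls in these lists were Mmp8 and Csf3r higher, and Bst2, Klrb1c, Cdh5 and Dcn lower. Mmp8 and Klrb1c were below background in both groups, and Bst2 is also an interferon-stimulated gene. Each of these calls was lost with some single arrays left out, with adjusted p of up to 0.102, 0.163, 0.0698, 0.131, 0.113 and 0.169 in the order named and down to 0.00901, 0.00303, 7.51e-05, 0.00998, 0.00364 and 0.0168. Of the osteoclast markers, which RAW 264.7 cells can express, 5 of 13 were above background and 1 rose, the fusion receptor Dcstamp (at least 1.62-fold). The arrays measured whole cultures, so fewer cells of a kind and less RNA per cell cannot be told apart.

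Integrin and protease genes rose in 7 of 31 and fell in 7, with a median of 0.09 that turned to -0.02 after exon control centring. Adamts4 fell 9.03-fold, the integrin chain Itga4 3.98-fold and Itga5 2.26-fold, while Adam8 rose 2.16-fold and Itgam 1.6-fold. Without inulin replicate 1 the list had 4 rises and without inulin replicate 3 it had 3. Without inulin and TsSP replicates 1, 2 or 3 it had 4, 3 or 4.

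Whether inulin altered the effect of TsSP was tested as the difference of the effects with and without it. No gene was called by limma (0.0%), the smallest adjusted p being 0.646, and 1089 genes (5.58%) had an unadjusted p under 0.05. Inulin with LPS against LPS alone, which shares arrays with both comparisons, called none either (0.0%), with 1143 genes at an unadjusted p under 0.05 and a smallest adjusted p of 0.332. A p that misses the threshold does not show equal effects, so the intervals are given. Of the 3295 genes called in either comparison and above background on all 12 arrays, 2969 (90.1%) had a 95% interval of the difference that stayed within 1 on the log2 scale, and the median half-width was 0.43. Most of these genes changed less than 2-fold, so such an interval can still include the loss of their whole TsSP effect. Choosing called genes also favours small spreads and so narrow intervals.

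For Tnf the difference was -0.19 (95% interval -0.55 to 0.17), for Il6 -0.08 (-0.43 to 0.27) and for Il10 0.24 (-0.15 to 0.63). For Il27 it was 0.13 (-0.32 to 0.58), for Il19 0.36 (-0.21 to 0.92) and for Cxcl9 0.02 (-0.52 to 0.56). Hmox1 had -0.15 (-0.46 to 0.17), Bnip3 -0.05 (-0.5 to 0.39) and Hmgcs1 0.19 (-0.16 to 0.53). Dim genes were less well bounded, as with Csf2, at -0.49 (-1.56 to 0.59). Among the 30 leading genes, Rgs1 and Rgs2 had a larger fall with inulin by 0.8 (interval of the signed difference -1.48 to -0.12) and 0.71 (-1.36 to -0.07). Sprr2f had a larger rise by 0.94 (0.28 to 1.6), and Tm4sf1 a smaller one, with a difference of -0.51 (-1.01 to -0.01). None of these passed after adjustment. Among the 805 genes called and more than 2-fold changed without inulin, above background on all arrays, the log2 difference with inulin was a median 0.963 of that without (quartiles 0.823 and 1.07). Among the 756 chosen in the same way with inulin the median was 1.03 (0.945 and 1.15), so the ratio moves with the comparison that chose the genes.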

How the data were processed

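Total RNA of RAW 264.7 cells was hybridised to Affymetrix arrays, per the labels' protocols. The values are those of the deposited series table, 28846 probe sets on 12 arrays, taken as log2 signals normalized by the authors from their range of 1.32 to 18.9; no source used here gives the method, log base or genome build. All 19572 annotated probe sets matched 1 gene, and 55 symbols had several. The 4 groups were fitted with limma 3.58.1 in R 4.3.3 (1 mean per group, 8 residual and 3.35 prior degrees of freedom), two-sided, with Benjamini-Hochberg adjustment over 19505 genes. A gene was called at an adjusted p under 0.05. The fit was tested on simulated data. Named genes were the 15 largest rises and falls with no overlap of arrays, 12 activation genes, and members of 38 lists. Of the activation genes, Il12b was not among the genes analysed. Members and lists were chosen with earlier results of these data known. Of 962 listed genes 85 were not analysed here. The small number of arrays limits precision. Alternatives were other scalings, filters and fits, and each array left out in turn.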

Additional observations from a re-analysis of the deposited data

Results flagged for a closer look

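The annotated genes leave 2634 transcript clusters of the array unnamed here, and these were outside the comparisons of the report. With the same fit 208 of them were called when TsSP was added to inulin and LPS (7.9%), 109 higher and 99 lower, and 181 of the 208 were above background on every array of a group. The cluster TC1900000646.mm.2 read 10.43, 10.16 and 10.54 with inulin and 14.25, 14.23 and 14.23 with TsSP, with no overlap (log2 difference 3.86 ± 0.13 SE, adjusted p = 8.53e-09). TC1100002643.mm.2 read 13.54, 13.46 and 13.34 against 9.73, 9.88 and 9.71 (-3.67 ± 0.13 SE, adjusted p = 9.71e-09). They were singled out after their values were seen, as the largest rise and fall among the unnamed.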

How the results depend on the processing

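Over the 20 alternatives the count of called genes ran from 2523 to 4032 around 3248, and no call was reversed. Leaving out 1 array gave 2523 to 3337, with 74.5% to 97.0% of the calls kept the same way. The difference of the TsSP effects gave 0 called genes under each alternative that could be fitted; the 6 arrays alone cannot give it. Same-numbered arrays deviated together no more than others (r of -0.0476, 0.0197 and -0.0427). No pairing was seen, but correlations over so few arrays cannot exclude a shared culture day or batch. The replicate block called 2941. Of 444 called list members, neighbours and other genes followed, 348 kept their call throughout and 96 lost it at least once. Exon control centring moved the share of higher calls to 37.0%. Genes near background have only bounds.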

Other observations

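Of the genes called in both TsSP comparisons, 1 was called in opposite directions. Aanat, an enzyme of melatonin synthesis, read 3.67, 3.77 and 3.88 with inulin and 3.01, 3.23 and 2.79 with TsSP, below background on all arrays (-0.76, adjusted p = 0.00678), and was 0.63 higher without inulin (adjusted p = 0.0191). Its difference of effects, -1.39 (95% interval -1.9 to -0.89), had an adjusted p of 0.646.

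A few genes, singled out after their values were seen, were called with inulin and not without. Elavl4, an RNA-binding protein of neurons, read 9.23, 9.34 and 9.55 with inulin and 6.88, 6.37 and 6.97 with TsSP, a 6.21-fold fall, against -1.07 without inulin (adjusted p = 0.0774). Sult1c1, a sulfotransferase, fell 2.43-fold, from 9.07, 9.19 and 9.15 to 7.78, 7.81 and 7.97, against -0.31 without inulin (adjusted p = 0.122). Otud1, a deubiquitinase, fell at least 2.69-fold, against -0.57 without inulin (adjusted p = 0.172). Elavl4 read 9.57, 8.96 and 7.79 with LPS alone and 7.35, 8.21 and 7.56 with TsSP and LPS, so those groups overlapped. Part of the contrast lay in the arrays without TsSP. The mean of Sult1c1 was 9.13 with inulin and 8.41 with LPS alone, against 7.85 and 8.1 with TsSP. For Otud1 these means were 7.68 and 6.82, against 5.68 and 6.25. The intervals of the differences excluded 0 before adjustment, at -2.74 to -0.39 for Elavl4, -1.36 to -0.59 for Sult1c1 and -2.24 to -0.62 for Otud1. None passed after adjustment.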
